A study of Mus musculus with 6 samples.

Results

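The ETS transcription factors described here were 9 genes, Fli1, Spi1, Ets2, Elf1, Elf4, Etv6, Gabpa, Elk3 and Ets1, of the 55254 gene symbols in a table of 3′ end read counts from mouse macrophages. They were chosen by name, with the difference between the groups in these same libraries already known, so the values of the 9 genes in that comparison are a description. Where one of them is said to meet a threshold taken from the study, that too describes the values that chose it. It is no independent test. Bone marrow derived macrophages (BMDMs) were grown for 10 days in medium containing L929 supernatant, activated with 100 ng/ml LPS for 4 hrs, and their RNA was sequenced from the 3′ ends (QuantSeq). The 3 control cultures carried the floxed gene without Cre (hnRNPD fl/fl). The 3 M-Δx3,4 cultures were LysCre+ hnRNPD fl/fl, in which exons 3 and 4 of hnRNPD, the gene of the RNA-binding protein AUF1, are removed in cells that express lysozyme M. Both groups had the C57BL/6J strain, young mice of one age range as donors and the floxed alleles in common. Controls thus carried no Cre, untreated cells were not compared here, and removal of the exons depends on the activity of LysMCre in each macrophage. The sources used here do not say whether the 3 cultures of a group came from separate mice, so p-values measure only the spread between these cultures.

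ETS factors bind DNA through the winged helix-turn-helix ETS domain, most of them at sites with a GGA core, and many act together with a partner factor bound next to them. PU.1, the product of Spi1, is the ETS factor on which the formation of macrophages depends, while Fli1 is best known from megakaryocytes, endothelium and blood stem cells. AUF1 belongs to the proteins that bind AU-rich elements of mRNAs, whose core is the pentamer AUUUA, written ATTTA in the annotated sequence.

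The mRNAs of the 9 genes differed in how much of this motif they carried after the stop codon. ATTTA was counted on the transcript strand, overlapping copies included, in the 3′ UTR that GENCODE vM21 gives for the transcript with the highest mean count of each gene. There were 9 copies in Gabpa, 7 in Etv6, 6 each in Ets2, Elf1 and Ets1, 5 in Elk3, 4 in Fli1, 1 in Elf4 and 0 in Spi1. Of the 8766 tested genes with an annotated 3′ UTR, 70.4% held at least 1 copy, and among the 9 ETS factors 8 did. The 3′ UTRs of 8 of the 9 were longer than the median of 1192.5 bases over those genes, from 1572 bases in Fli1 to 3681 in Etv6, and that of Spi1 was shorter, at 362 bases. Per kb of 3′ UTR, 7 of the 9 lay above the median of those genes, led by Elf1 with 3.48 and Ets2 with 3.14. Fli1 had 2.54 per kb, Elf4 0.28. The longer nonamer TTATTTATT, which contains the pentamer, was found 3 times in Etv6 and in none of the other 8, against 7.86% of the 8766 genes that held it. In the last 300 bases before the annotated end, ATTTA was present in 2 of the 9, Elf1 and Ets1 with 3 copies each, and in 43.6% of the 7637 genes with a 3′ UTR of that length. A match describes the letters only and is not a binding site. One window of 30 bases, the densest in ATTTA of each 3′ UTR, is printed for the 8 genes that have the motif, because the density and the overlap of the pentamers set them apart. Capitals mark ATTTA, and each window is read 5′ to 3′ on the strand of the gene.
Fli1: gaatgagttaaatATTTAggttactggaac
Ets2: tATTTAacagaaattgtatattgtATTTAa
Elf1: aatttgtATTTAaacaaaaATTTAaatttt
Elf4: ccttacacagggaATTTAccatccaatatg
Etv6: ttttattttATTTATTTATTTAtttttggg
Gabpa: aggttattaATTTAtaATTTAcaagaagag
Elk3: tgcATTTAgtgttatgtacatgaATTTAtg
Ets1: ctgaaaATTTAaaagcaagATTTAaaaagg

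All of these windows lie in the last exon of their gene. On GRCm38 (mm10) the window of Fli1 is chr9:32423493-32423522 on the minus strand, that of Ets2 chr16:95719629-95719658 on the plus strand, and that of Elf1 chr14:79582383-79582412 on the plus strand. The window of Elf4 is chrX:48414291-48414320 on the minus strand, that of Etv6 chr6:134267673-134267702 on the plus strand, and that of Gabpa chr16:84861115-84861144 on the plus strand. The window of Elk3 is chr10:93249545-93249574 on the minus strand and that of Ets1 chr9:32757538-32757567 on the plus strand. Etv6 alone had 3 pentamers that run into each other. Ets2, Elf1, Gabpa, Elk3 and Ets1 had 2 separate ones within the window, and Fli1 and Elf4 had 1.

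**Figure D1:**
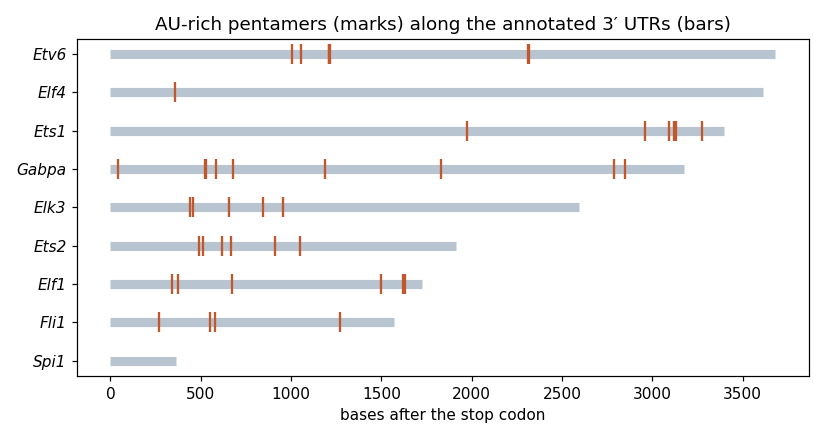
The map shows the annotated 3′ UTR of each ETS factor as a bar that starts at the stop codon, with the distance in bases on the x axis, and a mark at each ATTTA. Spi1 has the shortest bar, 362 bases, and no mark, while Gabpa has 9 marks along its whole length and Elf4 has 1 in 3614 bases.

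The libraries held 5852374 to 9008878 counts. The 3′ region counted for transcript ENSMUST00000072750 of Hnrnpd, the targeted gene, had 178, 104 and 69.6 normalized counts in the controls, all above the 52.8, 12.6 and 16.0 of the M-Δx3,4 cultures, although 3′ end reads show neither the isoform nor whether exons 3 and 4 were present. Counts were normalized by the median of ratios, and edgeR's quasi-likelihood test was run on 32475 transcripts of 11875 genes, with each gene counted through whichever of its transcripts had the highest mean. The study called a transcript at p under 0.05 when its log2 fold change was 1 or more in either direction. The p of the study combined several methods, edgeR among them. Here the unadjusted p of edgeR alone was put in that rule, and the calls of the study itself were not compared. In this way 1.1% of the genes were higher and 1.97% lower in M-Δx3,4, together 365 genes. That number was 1255 without control replicate 1 and 220 without control replicate 3. At an adjusted p under 0.05 the share was 0%, the smallest adjusted p of edgeR was 0.825, 472 genes had an unadjusted p under 0.05, and DESeq2 gave 2 genes under the adjusted threshold. The control libraries stood apart from each other. Over 4723 well counted genes the log2 counts of control replicates 1 and 3 correlated at 0.764 (across genes, which are not independent), against 0.950 to 0.952 between M-Δx3,4 libraries. All 10 macrophage markers looked for, among them Cd68, Adgre1 and C1qa, were counted in these cultures. Of these, 3 had a log2 fold change above 0 and 7 below, with a median of -0.44 and none past the threshold. The median of all genes tested was -0.01.

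All 9 ETS factors had counts and passed the filter on low values, and of their 40 listed transcripts 25 had reads, in 19 distinct sets of counts. Fli1 had about 3 times as many normalized counts in M-Δx3,4 as in control BMDMs. With the p of edgeR, Fli1 was the only 1 of the 9 past the threshold, beside 1.1% of all genes in that direction. Spi1 was the most abundant, and the SD of its controls was 77.7% of their mean, the highest share among the 9. In 2 of the 9, Fli1 and Etv6, every M-Δx3,4 library lay above every control library, beside 4.18% of all genes (and 4.26% in the opposite direction, with none of the 9). The libraries of the other 7 overlapped. The log2 fold change was above 0 in 6 and below 0 in 3, with a median of 0.27, where the median of all 11875 genes was -0.01. Nothing is read from these counts, because the choice of the genes used the same comparison. A lower count in a culture can mean fewer cells of a type or less RNA per cell, and the 2 cannot be told apart in bulk RNA.

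**Figure D2:**
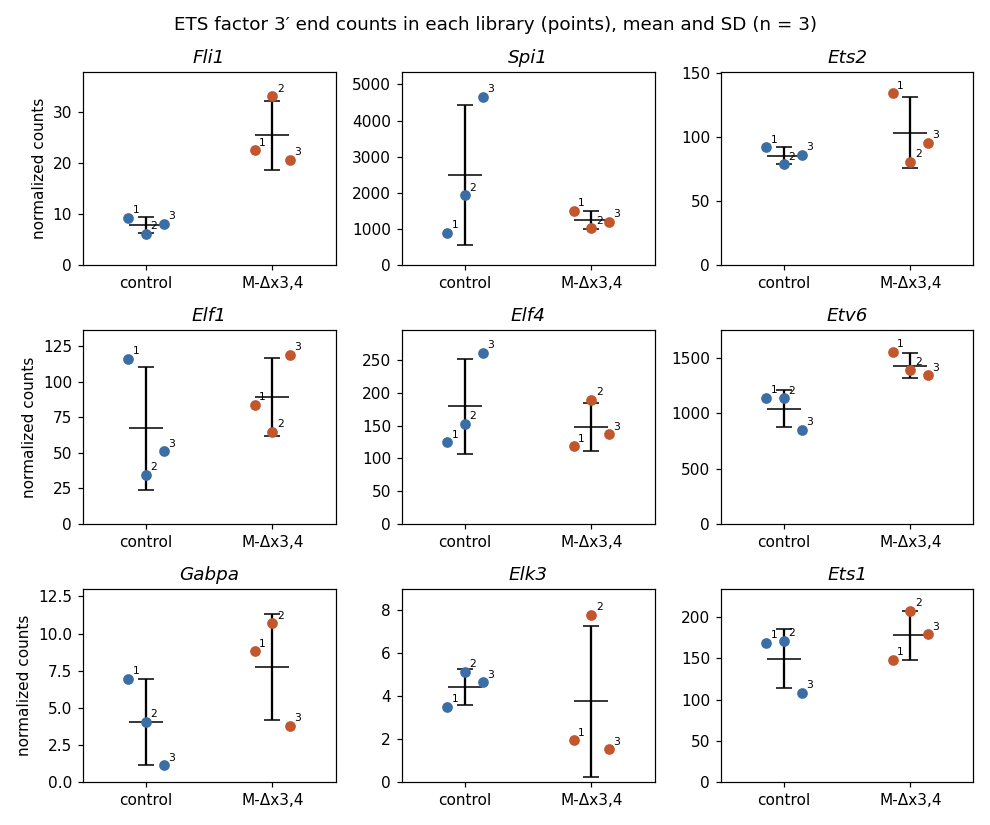
Each panel gives the normalized counts of 1 ETS factor (y axis, from 0, scaled per gene) in the 3 control and 3 M-Δx3,4 libraries, numbered by replicate, with the mean as a bar and the SD as whiskers (n = 3). For Fli1 and Etv6 the M-Δx3,4 points lie above all control points, and for Spi1 control replicate 3 stands far above the other libraries.

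Fli1 encodes an activator that pairs with GATA and RUNX factors in blood cells. Its counted region, chr9:32421955-32423775 on the minus strand, covers the 3′ UTR in the last exon and 249 bases past the annotated end, as do the regions of the other 8 genes. It collected 8, 6 and 7 reads in the controls, against 23, 34 and 27 reads in M-Δx3,4. The normalized counts were 9.30, 6.13 and 8.12 in control cultures and 22.5, 33.0 and 20.6 in M-Δx3,4 cultures (7.85 ± 1.60 against 25.4 ± 6.68, SD, n = 3). All control libraries were low and close together, and all M-Δx3,4 libraries were above them. The log2 fold change was 1.68 (standard error, SE, 0.51), and it ran from 1.44 without M-Δx3,4 replicate 2 to 1.81 without control replicate 1. Its level was low all the same. Only 1 of its 2 listed transcripts, ENSMUST00000016231, had any read, so no other 3′ end of Fli1 could be compared at this depth.

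Fli1 and Ets1 are neighbours on chromosome 9, on opposite strands and with 93.4 kb between the genes. Ets1, the founding member of the family and known best from lymphocytes, had 169, 171 and 108 normalized counts in control cultures and 148, 207 and 179 in M-Δx3,4 cultures. The groups overlapped, with control replicate 3 lowest and M-Δx3,4 replicate 2 highest. Its log2 fold change was 0.25 (SE 0.34). Whether the log2 fold changes of these neighbours differ from each other was not tested.

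Since Fli1 and Ets1 are also expressed in other blood cells and in vessels, markers of those cells were summed in each library. The 7 megakaryocyte markers, nearly all of them Pf4, which macrophages also express, came to 150 to 261 normalized counts in controls and 118 to 159 in M-Δx3,4 libraries. Gp1ba and Gp6 were among those at 0 in every library. The 6 endothelial markers, mostly Kdr, summed to 44.2, 55.2 and 56.8 in control cultures and 64.6, 79.6 and 49.7 in M-Δx3,4 cultures, with Tek and Emcn at 0. The 8 T and NK cell markers summed to 10.4 to 45.3 in control and 12.7 to 25.2 in M-Δx3,4, and 6 of them, Cd3e and Cd3g included, were at 0. The 8 B cell markers, mostly Igkc and Ighm, summed to 301 to 360 in control and 143 to 165 in M-Δx3,4, a difference carried by Igkc (235 ± 15.1 against 79.3 ± 18.4). Of the 4 that could be tested, 2 had a log2 fold change above 0, among them Cd79b (0.39), and 2 below. The part of these cells in the values of Fli1 and Ets1 was not tested.

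Spi1, whose product PU.1 drives most macrophage genes, was the member with the most reads. The region chr2:91115395-91116005 on the plus strand had 896, 1940 and 4656 normalized counts in control cultures and 1511, 1024 and 1211 in M-Δx3,4 cultures (2497 ± 1941 against 1249 ± 246, SD, n = 3). The highest control library exceeded the lowest 5.20 times, and control replicate 1 lay below all M-Δx3,4 libraries. The log2 fold change was -0.998 (SE 0.46). Spi1 was thus just outside the threshold by size, and Fli1 was the one gene of the 9 inside it. Without control replicate 3 the log2 fold change was -0.17, without control replicate 1 it was -1.40, and without control replicate 2 it was -1.16, the latter 2 past the threshold. A second, far upstream transcript, ENSMUST00000131400, had 6, 32 and 2 reads in control and 16, 14 and 48 in M-Δx3,4 libraries, which overlap. It is counted at chr2:91090311-91090559, so the 2 Spi1 regions share no read.

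**Figure D3:**
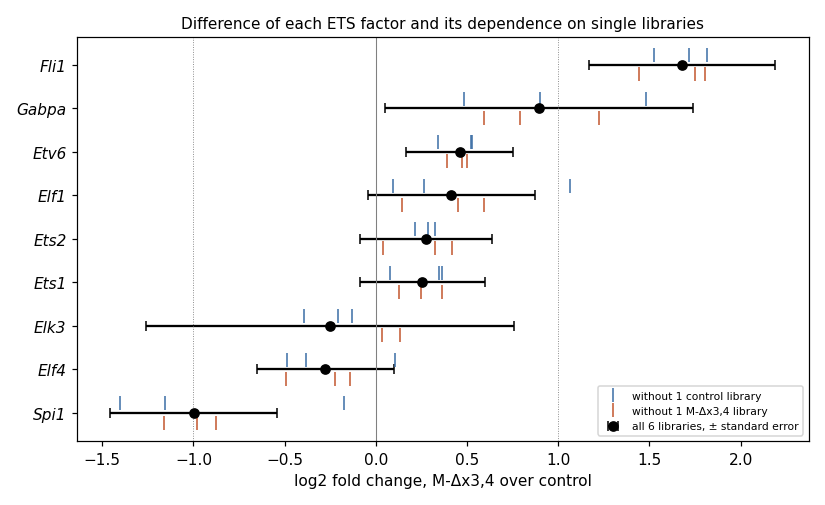
The log2 fold change of each ETS factor (x axis, M-Δx3,4 over control) is shown as a point with its standard error, with ticks for the fits that left out 1 control library (above) or 1 M-Δx3,4 library (below), and dotted lines at an absolute value of 1. All ticks of Fli1 lie between 1.44 and 1.81, those of Spi1 spread from -1.40 to -0.17, and those of Elf4 and Elk3 cross 0.

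The genes of a list of 26 PU.1 targets in macrophages were divided between the directions, 13 above and 13 below 0, with a median log2 fold change of 0.01 and none past the threshold. Sirpa, an inhibitory receptor, had a log2 fold change of -0.18 (SE 0.28). Tyrobp, the adaptor of several myeloid receptors, had -0.43 (0.30), and Ctss, a lysosomal protease, 0.07 (0.30). The libraries did not overlap in 3 genes of the list, all lower in M-Δx3,4, beside 4.26% of all genes in that direction and 4.18% in the other. Among them were Lyz2 (lysozyme M, 1994 ± 206 against 1064 ± 245 normalized counts) and Tyrobp (2635 ± 652 against 1958 ± 236), and Lyz2 was chosen after its values were seen. Lyz2 was the only gene of the list with an unadjusted p under 0.05, and its log2 fold change of -0.91 passed the threshold without M-Δx3,4 replicate 1 (-1.11) and after removal of a GC trend (-1.02). LysMCre is inserted in Lyz2 itself, so the presence of Cre and the loss of AUF1 cannot be told apart for this gene. Csf1r, a classical PU.1 target, had 93.0, 132 and 172 normalized counts in control cultures and 111, 87.4 and 97.1 in M-Δx3,4 cultures. In Csf1r, named with its values in view, control replicate 3 was the highest of the 6 libraries, as in Spi1. This did not hold across the list. Among its 3 most abundant genes, control replicate 3 was the highest library in Tyrobp (3388 normalized counts). It was the lowest in Sirpa (5819) and Ctss (1705).

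Etv6, a repressor of the family (TEL), was the second of the 9 by level. Its region, chr6:134266475-134270404 on the plus strand, had 1139, 1133 and 848 normalized counts in control cultures and 1554, 1392 and 1343 in M-Δx3,4 cultures (1040 ± 166 against 1430 ± 110, SD, n = 3). The groups did not overlap, with a gap between the highest control and the lowest M-Δx3,4 library that was smaller than the range within control. The log2 fold change was 0.46 (SE 0.29), from 0.34 to 0.53 as single libraries were left out. Its direction rested on no single library, and its size stayed well short of the threshold. Both Etv6 transcripts with reads end within a few bases of each other and hold identical counts.

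Ets2, which like Ets1 carries a Pointed domain and is activated through the Ras and ERK pathway, had 91.8, 78.7 and 85.9 normalized counts in control cultures and 134, 80.6 and 95.5 in M-Δx3,4 cultures. The libraries overlapped, and M-Δx3,4 replicate 1 alone was far above the rest. The log2 fold change was 0.27 (SE 0.36). The reads were, however, divided differently within the region. The transcript ENSMUST00000233578 is counted over chr16:95721046-95721294, which holds the last 6 annotated bases of Ets2 and 243 bases past its end. This part took 45.6%, 57.1% and 63.5% of the reads of the Ets2 region (chr16:95719139-95721300) in control cultures and 73.7%, 75.9% and 68.0% in M-Δx3,4 libraries (55.4 ± 9.10 against 72.5 ± 4.08, SD, n = 3). The shares did not overlap, and how often this occurs in nested regions of other genes was not counted. The end part had 41.8, 45.0 and 54.5 normalized counts in control cultures and 98.8, 61.2 and 65.0 in M-Δx3,4 cultures, which gave a log2 fold change of 0.67 (SE 0.39). The rest of the region had 38.3 ± 10.2 in control and 28.4 ± 8.12 in M-Δx3,4, and its libraries overlapped. These shares rest on 36 to 101 reads of the end part in a library, come from the comparison that chose the gene and were picked after their values were seen.

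In Ets1 such a split did not follow the groups. The proximal part of the region chr9:32754426-32758069, which ends at position 32755253, took 67.6%, 68.3% and 67.7% of the reads in control and 56.3%, 71.4% and 65.8% in M-Δx3,4 libraries. The 3 controls were almost equal, and the M-Δx3,4 libraries lay on both sides of them. In Etv6, Elf1 and Elf4 the transcripts with reads had identical counts, so no split could be looked at.

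**Figure D4:**
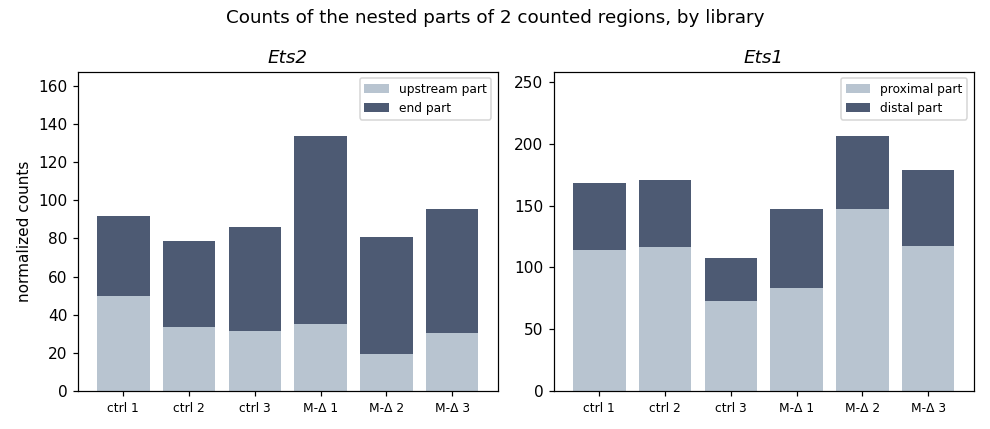
Stacked bars give the normalized counts (y axis, from 0) of the nested parts of the Ets2 and Ets1 regions in each control (ctrl) and M-Δx3,4 (M-Δ) library. In Ets2 the dark end part makes up 45.6% to 63.5% of the bar in control and 68.0% to 75.9% in M-Δx3,4 libraries, while in Ets1 the light proximal part makes up 56.3% to 71.4% of every bar.

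Elf1 and Elf4 are related activators of lymphoid and myeloid genes, and Elf4 is known for its part in antiviral responses. Elf1 had 116, 34.7 and 51.0 normalized counts in control cultures and 84.1, 65.1 and 119 in M-Δx3,4 cultures, which gave a log2 fold change of 0.41 (SE 0.46). Its control replicate 1 stood with the highest M-Δx3,4 library and the other controls stood below all of them, so that without it the log2 fold change was 1.06 and past the threshold. Elf4 had 124, 153 and 261 in control cultures and 118, 189 and 137 in M-Δx3,4 cultures, which gave a log2 fold change of -0.28 (SE 0.37). Here control replicate 3 was the highest of all, and without it the log2 fold change turned to 0.10. For neither gene did the direction of the difference stand apart from the spread of the controls.

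Gabpa, the DNA-binding subunit of the GABP complex that serves many housekeeping and mitochondrial genes, and Elk3, an ERK-regulated partner of SRF, were close to the limit of detection. Gabpa had 6, 4 and 1 reads in controls against 9, 11 and 5 in M-Δx3,4, which gave a log2 fold change of 0.90 (SE 0.84). Elk3 had 3, 5 and 4 reads in controls against 2, 8 and 2 in M-Δx3,4, which gave a log2 fold change of -0.25 (SE 1.01), and its sign changed when M-Δx3,4 replicate 1 (0.03) or 3 (0.13) was left out. In its other distinct transcript, ENSMUST00000151153, Elk3 had 3, 3 and 2 reads in controls against the same 2, 8 and 2, a log2 difference of 0.31 (1.13). For both genes, 2 SE on each side took in 0 as well as the difference seen in Fli1, so these counts do not exclude a difference of that size. Gabpb1 and Gabpb2, which supply the other subunit of GABP, had log2 fold changes of 0.12 (0.49) and 0.94 (0.63), with overlapping libraries.

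Per length, the order of the levels in control BMDMs was taken from the TPM values of the authors, which divide by the length of the counted region although 3′ end reads do not scale with it. Spi1 led with 287 ± 214 TPM (SD, n = 3), followed by Etv6 with 19.2 ± 3.86. Elf4 (3.31 ± 1.18), Ets1 (2.96 ± 0.82), Ets2 (2.86 ± 0.39) and Elf1 (2.52 ± 1.78) came next, and no neighbours among these 4 differed beyond the spread of the libraries. Fli1 had 0.31 ± 0.09 TPM, below every control library of Elf1 and above every control library of Elk3 (0.11 ± 0.01). Gabpa was last with 0.08 ± 0.07 and overlapped Elk3. In M-Δx3,4 BMDMs Fli1 had 1.02 ± 0.23 TPM and kept its place between Elf1 (3.38 ± 1.15) and the lowest pair.

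The ratio between control replicates 3 and 1 varied with the GC content of the mRNA. Over the 4723 well counted genes, the median log2 ratio of control replicate 3 to control replicate 1 went from -1.09 in the fifth with the lowest GC content (median 42.5%) to 0.89 in the fifth with the highest (57.8%). Gabpa, with the lowest GC content of the 9 at 41.4%, had the lowest ratio, -2.59, from 1 and 6 reads, and Spi1, with the highest at 58.9%, had the highest, 2.38. Elf1 (45.0%) had -1.19, Ets1 (47.3%) -0.64 and Elf4 (50.7%) 1.07. Elk3 (48.8%) had 0.41, from 4 and 3 reads, Etv6 (49.7%) -0.43 and Ets2 (52.6%) -0.10, so the ratios did not rise strictly with GC content. Fli1, although its GC content of 44.5% is close to that of Elf1, had a ratio of -0.20, from 7 and 8 reads. With a GC trend removed from each library, a step chosen after seeing the data, the log2 fold change of Spi1 was -0.56, that of Fli1 1.45, that of Etv6 0.43 and that of Elf1 0.24. Of these, Spi1 moved most. What set the controls apart was not tested.

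**Figure D5:**
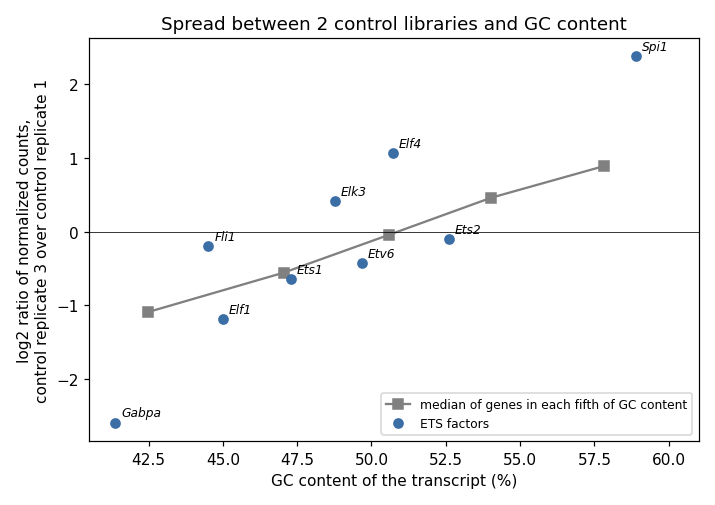
The log2 ratio of normalized counts between control replicates 3 and 1 (y axis) is plotted against the GC content of the transcript (x axis, %) for the 9 ETS factors, with squares for the medians of 4723 genes grouped by GC content. The medians climb from -1.09 to 0.89, Spi1 (2.38) and Gabpa (-2.59) mark the ends, and Fli1 (-0.20) and Ets2 (-0.10) lie near 0.

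The genes whose log2 counts followed Fli1 most closely over the 6 libraries, among the same 4723 genes, included Akr1c13 (Pearson's r 0.972), Hmgn2 (0.957), Ube2l3 (0.956) and Enox2 (0.953). Akr1c13 is an aldo-keto reductase, Hmgn2 a nucleosome-binding protein and Ube2l3 a ubiquitin-conjugating enzyme. These 4 had higher means in M-Δx3,4, with log2 fold changes of 0.46, 0.84, 0.50 and 0.62, each smaller than that of Fli1. With 6 libraries in 2 groups that share depth and base composition effects, such values of r are a description.

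Of 18 other genes of the ETS family, 17 were in the table, 11 had counts and 10 could be tested. Erg, the closest relative of Fli1, was at 0 in every library, as were Fev, Etv4, Elf3, Elf5 and Spdef. Among the 10 tested, 4 lay above and 6 below 0, with a median log2 fold change of -0.02 and none past the threshold. The most abundant were Etv5 (303 ± 139 normalized counts in control against 294 ± 17.1 in M-Δx3,4), Etv3 (179 ± 55.6 and 205 ± 28.6) and Erf (156 ± 71.0 and 105 ± 21.4), the latter pair being repressors. Elk1, an SRF partner like Elk3, alone among them had an unadjusted p under 0.05. It had 110, 188 and 223 normalized counts in control cultures and 75.3, 64.1 and 122 in M-Δx3,4 cultures, and its log2 fold change, -0.99, passed the threshold without M-Δx3,4 replicate 3 (-1.32) or control replicate 1 (-1.23). Etv2, which did not overlap between groups, had no M-Δx3,4 library above 1 normalized count and owed its control mean to replicate 2 (11.2, against 1.16 in the other controls).

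Of 21 partner factors, 17 could be tested, 7 above and 10 below 0, with a median log2 fold change of -0.25, none past the threshold and no gene with groups apart. Irf8, which binds composite sites with PU.1, had a log2 fold change of -0.35 (SE 0.34), Jun, an AP-1 subunit, -0.10 (0.28) and Cebpb -0.39 (0.38). Runx1, a partner of Fli1 and Ets1, had 14.8 ± 1.26 normalized counts in control cultures and 19.7 ± 6.66 in M-Δx3,4 cultures, and Gata1 and Gata2 were at 0. In the ERK cascade that phosphorylates Ets1, Ets2, Elk1 and Elk3, 5 of 10 genes lay on each side of 0, with a median of -0.03 and none past the threshold. Nras had 0.25 (0.46), Map2k1 0.26 (0.36) and Mapk3 -0.23 (0.36). Without control replicate 1, 3 genes of the cascade passed it, Nras (1.12) among them.

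A list of 16 genes taken as Fli1 targets, most of them from megakaryocytes and endothelium, held few reads in these cultures. There were 12 with any count and 7 that could be tested, 1 above and 6 below 0, with a median log2 fold change of -0.16 and none past the threshold. Among the 6 were the collagen genes Col1a1 (-0.06) and Col1a2 (-0.16), which also served as fibroblast markers. The median of the list is the value of Col1a2 itself, which had 14, 7 and 0 reads in controls and 14, 2 and 7 in M-Δx3,4. It is thus not a median of megakaryocyte and endothelial genes alone. The list does not give the direction in which Fli1 acts on each gene. Pf4, a platelet chemokine that macrophages also make, had 187 ± 58.3 normalized counts in control cultures and 136 ± 20.2 in M-Δx3,4 cultures. Kdr, the VEGF receptor, had 47.4 ± 5.21 and 58.9 ± 14.8, and Eng, a TGF-beta co-receptor, 21.4 ± 10.0 and 13.3 ± 5.90. Their libraries overlapped, and the smallest adjusted p of edgeR in any of the 5 lists was 0.985.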

How the data were processed

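The authors mapped Ion Torrent reads to mm10 with TopHat2 (2.1.1) and then Bowtie2 (2.3.2 per the labels), and deposited raw read counts per 3′ UTR region, with regions reaching past the annotated ends. They also deposited TPM values, their own fold changes and p-values (not used), and 18 further columns of values per sample (not used). Here the counts of the regions of each transcript were summed (142567 transcripts, 52013 with a count) and median of ratios factors computed. A transcript was tested if any library exceeded the overall median normalized count, 4.89, using edgeR (4.0.16, R 4.3.3, quasi-likelihood, Benjamini-Hochberg over 32475 transcripts), and DESeq2 (1.42.0) was an alternative. Transcripts of a gene share reads and are not independent. The deposited TPM values were used only to order the genes by level. PCR duplicates cannot be told from separate molecules. The scripts were tested on simulated data. Whether counting used the strand is not given in the sources used here, but no counted region of the 9 genes overlapped an exon of another gene in GENCODE vM21.

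The 9 genes and the lists were chosen with earlier results of these data known. Named are the 9 genes by their highest transcript and their other distinct transcripts, the genes of the 5 lists past the threshold and the 3 most abundant of each, Hnrnpd, and the 5 genes most correlated with Fli1 on log2 (normalized count + 1). Some genes that this rule takes in are not reported here. Any further gene was named with its values in view. Replicate numbers were not used as pairs, because the deviations of same-numbered libraries did not go together (r of -0.21, 0.54 and -0.31). In the other lists of markers, the sums in control and M-Δx3,4 libraries were 10463 to 13476 and 9598 to 11035 (macrophage), 387 to 695 and 482 to 728 (neutrophil), 3.49 to 10.2 and 0.98 to 7.77 (dendritic cell), 2.32 to 48.8 and 1.94 to 33.3 (fibroblast), and 0 to 32.5 and 0.97 to 13.8 (erythroid).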

Additional observations from a re-analysis of the deposited data

How the results depend on the processing

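Leaving out control replicate 1 changed the counts most. Leaving out any other single library changed the numbers of transcripts and genes less than filterByExpr did. Past the threshold were 1070 transcripts of 365 genes, with 705 to 3211 transcripts, 220 to 1255 genes, 1 to 3 of the 9 ETS factors and 0 to 8 genes of the 5 lists when 1 library was left out, the highest without control replicate 1 and the lowest numbers of transcripts and genes without control replicate 3. Without control replicate 1, 40.8% of the transcripts past the threshold were lower in M-Δx3,4, against 62.1%. The other settings gave 1715 transcripts with no filter, 477 transcripts of 156 genes with filterByExpr, 696 of 226 with DESeq2, 389 transcripts with 1 transcript per gene, and 685 with the replicate number as a block (replicate block), where the numbers do not pair the cultures. No other count changed by over 1.5 times under the replicate block. With 1 transcript per gene, 2 of the 9, Fli1 and Spi1 (-1.06), and 2 list genes, Elk1 and Etv2, passed. With no filter 1 list gene passed (Etv2), and with the GC trend removed 1 (Lyz2). The direction reversed only in Elf4 (-0.49 to 0.10 with 1 library left out) and Elk3 (-0.39 to 0.13), and there was no value for Gabpa and Elk3 under filterByExpr or for Elk3 without M-Δx3,4 replicate 2, so the range of Elk3 comes from 5 fits. The causes were not tested. Depth limits Fli1, Gabpa and Elk3, with at most 34 reads in a library.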
